A study of Mus musculus with 6 samples.

Results

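Matrix metalloproteinases (MMPs) and their tissue inhibitors (TIMPs) were examined in peritoneal macrophages of mice with ovarian tumors that received PBS or nanoparticles carrying IRF5 mRNA (IRF5-NPs). The members were every gene of the panel whose symbol begins with Mmp or Timp followed by a digit, which gave 8 of 754 genes. These were Mmp1a, Mmp8, Mmp9, Mmp10, Mmp12, Mmp13 and Mmp19, and Timp3 as the only inhibitor. After IRF5-NPs, Mmp12, Mmp8 and Mmp19 were lower than after PBS, the other 5 genes did not pass the test, and the call for Mmp12 was the least dependent on single samples.

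The labels describe adult C57BL/6J mice injected with ID8 cells, a mouse ovarian cancer cell line, 7 weeks before treatment. The PBS group had 3 samples and the IRF5-NP group had 3, and each group had 2 intraperitoneal doses, on days 1 and 5, with 30 µg of mIRF5 mRNA in the nanoparticle dose. Peritoneal cells were collected by lavage and sorted as F4/80+ CD11b+, so that every sample in both groups is a tumor-bearing, sorted macrophage sample. Neither group received empty particles or particles with another mRNA, and the carrier and the IRF5 mRNA cannot be told apart. In the study's methods the dose and the age of the tumors differ from the labels, the ID8 line expresses VEGF, and the particles are coated with Di-mannose and also carry mRNA for the kinase IKKβ. The labels tie no sample to a mouse or a pool of mice, and the p-values measure the spread between these samples, which may be technical.

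MMPs are zinc-dependent endopeptidases that are made as inactive proenzymes and cleave matrix proteins, other proteases, cytokines and their receptors once the propeptide is removed. TIMPs bind the active site of the mature enzymes and block it. Macrophages are a main source of MMPs in tumors, where the enzymes take part in matrix turnover, vessel growth and invasion. IRF5, the delivered factor, is a transcription factor of inflammatory macrophages.

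The members fall into functional classes. Mmp12 encodes macrophage elastase, which degrades elastin. Mmp1a, Mmp8 and Mmp13 encode collagenases, of which Mmp8, the neutrophil collagenase, is stored in neutrophil granules. Mmp9 encodes gelatinase B and Mmp10 encodes stromelysin 2. Mmp19 belongs to no classical subgroup, and Timp3 is the TIMP that stays bound to the matrix. In the RefSeq table (GRCm38.p6), to which all 8 genes matched by symbol, Mmp13, Mmp12, Mmp1a, Mmp10 and Mmp8 lie in this order in one cluster on chromosome 9, with Mmp1b and Mmp3, which are not on the panel, between Mmp12 and Mmp1a. Mmp9 is on chromosome 2, and Mmp19 and Timp3 are on chromosome 10.

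The promoters of the 5 cluster genes are shown because these neighbors differed in detection and in calls, and because AP-1, the Jun and Fos dimer, is a known regulator of MMP genes. Each sequence runs from 100 bases before the transcript start to 20 bases after it on the + strand, from RefSeq in build GRCm38.p6. Capitals mark the AP-1 motif TGANTCA, which reads the same on both strands.
Mmp13, chr9:7272414-7272533: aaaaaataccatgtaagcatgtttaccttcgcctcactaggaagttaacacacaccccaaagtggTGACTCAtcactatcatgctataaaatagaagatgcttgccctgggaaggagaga
Mmp12, chr9:7347274-7347393: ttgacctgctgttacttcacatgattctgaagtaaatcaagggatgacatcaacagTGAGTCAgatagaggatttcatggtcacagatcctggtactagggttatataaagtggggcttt
Mmp1a, chr9:7464041-7464160: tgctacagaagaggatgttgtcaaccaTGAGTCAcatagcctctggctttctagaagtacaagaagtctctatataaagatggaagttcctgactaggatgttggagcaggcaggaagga
Mmp10, chr9:7502242-7502361: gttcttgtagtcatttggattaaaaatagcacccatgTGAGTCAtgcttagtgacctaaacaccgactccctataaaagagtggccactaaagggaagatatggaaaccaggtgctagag
Mmp8, chr9:7558329-7558448: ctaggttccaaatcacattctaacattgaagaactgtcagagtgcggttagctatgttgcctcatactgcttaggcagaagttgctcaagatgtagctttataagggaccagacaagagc
The motif lay 35 bases upstream of the start in Mmp13, 44 in Mmp12, 73 in Mmp1a and 63 in Mmp10, and these letters are not in the window of Mmp8. Mmp12 has another listed start, chr9:7344297-7344416, whose window does not hold the letters either, nor does the window of Timp3. Of all 32851 promoter windows of 120 bases, 3.24% held the motif. Of the 4 genes with the motif, Mmp12 was lower after IRF5-NPs, and Mmp13, Mmp10 and Mmp1a did not pass the test, whereas Mmp8, without it, was lower. A match in the letters is a description and not a measured binding site.

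Transcripts were counted by barcoded probes in the NanoString nCounter system, with no amplification step, and the values are normalized counts on a linear scale. The recovered counts summed to between 683472 and 1830318 per sample, lowest in IRF5-NP replicate 3. The background, the mean plus 2 SD of 8 negative control (NEG_) probes scaled like the genes, lay at 79.4 normalized counts for IRF5-NP replicate 3 and at 25.6 to 37.8 for the other samples. No difference between PBS replicates 2 and 3 beyond the sampling noise of their counts was detected (chi-square per degree of freedom 1.07 over 754 genes, p = 0.0782), where the ratio was 7.07 to 179 for the other pairs within a group, and they may be 1 library. Their log2 values were averaged into 1 sample, and the comparison had 2 PBS and 3 IRF5-NP samples. PBS replicate 1 and IRF5-NP replicate 1 stood farthest from the other samples of their groups, and the counts of calls are also given without each sample. All 10 macrophage marker genes of the panel, among them Adgre1, which encodes F4/80, and Itgam, which encodes CD11b, were above background in every sample. Irf5 itself changed by -0.03 on the log2 scale (standard error 0.22, limma adjusted p = 0.948). In the study's methods the delivered IRF5 mRNA is codon-optimized and has PCR primers other than those for endogenous IRF5. Whether the Irf5 probe of the panel reads the delivered mRNA was not tested.

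Detection differed between the members and between the groups. Mmp13, Mmp19 and Timp3 were above background in all 6 samples. Mmp8, Mmp9 and Mmp12 were above it in every PBS sample but not in every IRF5-NP sample, so that 6 members were detected in all PBS samples and 3 in all IRF5-NP samples. In both IRF5-NP replicates 1 and 2, 6 members were above background, with Mmp10 in the place of Mmp8. Mmp9 and Mmp12 were below it only in IRF5-NP replicate 3, which had the higher background. Mmp8 was also below it in IRF5-NP replicate 1 (27.6 against 37.2 normalized counts). Mmp10 was above background in 4 samples and Mmp1a in none. These numbers were the same with the highest NEG_ probe, or the mean plus 3 SD, as the background. For the whole panel, 482 of 754 genes were above background in all 6 samples and 124 in none, 547 were above it in all PBS samples, 484 in all IRF5-NP samples and 542 in IRF5-NP replicates 1 and 2. The plot of the 8 genes by sample shows the values beside each sample's background.

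**Figure D1:**
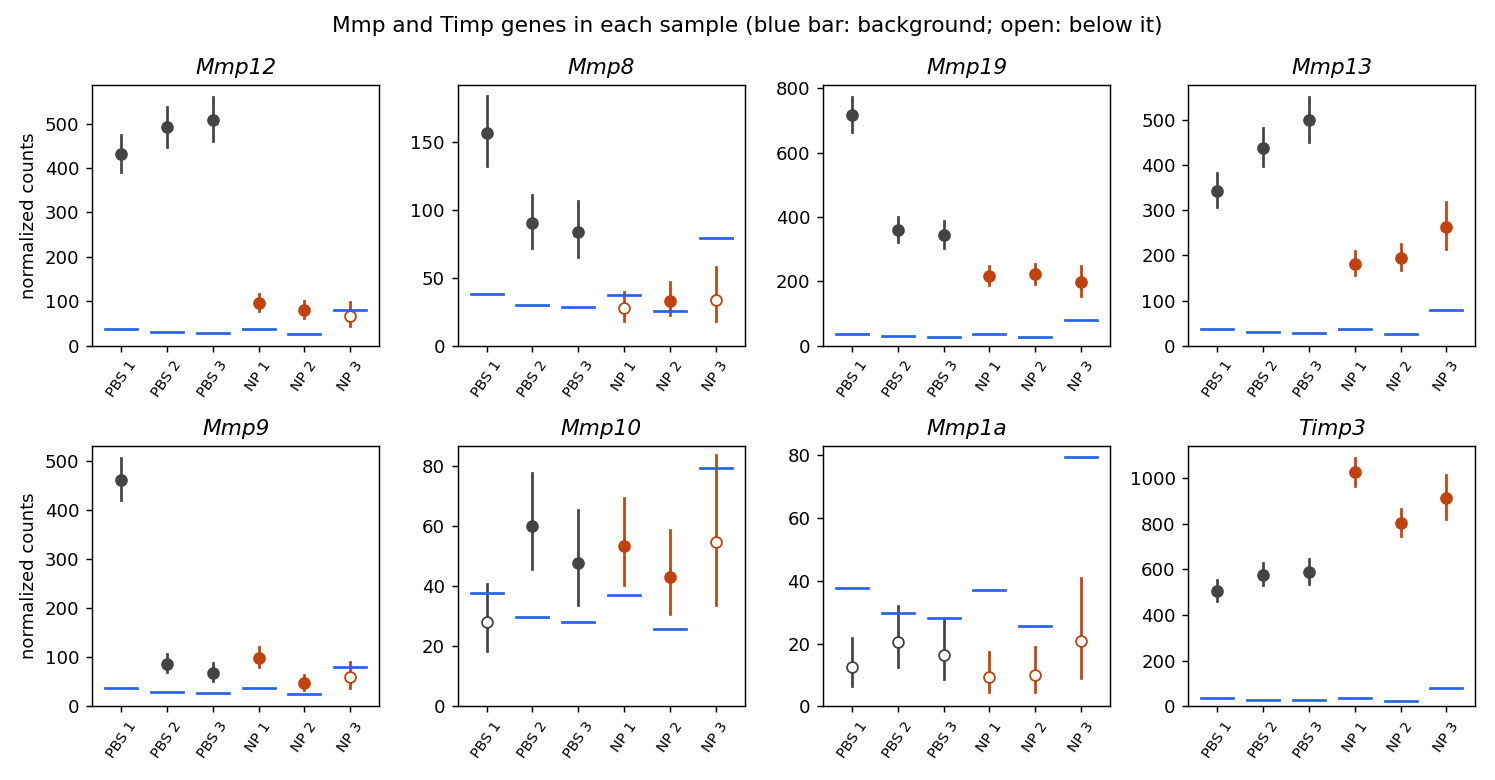
Normalized counts (linear vertical axes, a separate scale for each gene) of the 8 Mmp and Timp genes in PBS replicates 1 to 3 (gray) and IRF5-NP replicates 1 to 3 (orange, NP). Points are single samples, vertical lines are 95% Poisson intervals that cover counting error only, blue bars are the background and open points lie below it. Mmp12 falls from between 431 and 508 to between 67.6 and 95.2, and Mmp1a is below background throughout.

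In the comparison of IRF5-NPs with PBS, 3 of the 8 members were lower and none was higher past an adjusted p of 0.05 by limma, with Benjamini-Hochberg adjustment over 754 genes. Of all panel genes, 53 (7.03%) were lower, 19 (2.52%) were higher and 9.55% had passed in either direction. The split of the panel moved with the scaling, to 42 higher and 36 lower after a shift to a common median, and to 35 and 40 with quantile normalization, and 2 members, Mmp12 and Mmp8, were lower under both. The median log2 fold change, of IRF5-NP over PBS on log2 values with a pseudocount of 1, was -1.08 over the 8 members and -0.03 over the 754 genes. Counted without the test, 4 of the 8 members (Mmp12, Mmp8, Mmp13 and Mmp19) had all 3 IRF5-NP values below all 3 PBS values, against 20.4% of the panel. Timp3 alone had all 3 above, against 17.0% of the panel. In bulk samples fewer expressing cells and less RNA per cell cannot be told apart.

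Mmp12, the macrophage elastase, had 431, 491 and 508 normalized counts in PBS replicates 1, 2 and 3. In IRF5-NP replicates 1, 2 and 3 it had 95.2, 79.4 and 67.6. The groups did not overlap, and all IRF5-NP samples were far below the lowest PBS sample. The means were 466 ± 48.3 in PBS samples (SD, n = 2) and 80.7 ± 13.9 in IRF5-NP samples (SD, n = 3), a fall of 5.75-fold on the log2(value + 1) scale. Its log2 fold change was -2.52 (standard error 0.25, 95% interval -3.10 to -1.95, limma adjusted p = 0.000929). This was the smallest p of the members and rank 8 of the 754 genes. IRF5-NP replicate 3 was below its background of 79.4, and with that value raised to the background the fall was 5.45-fold. Leaving out any 1 of the 6 samples kept Mmp12 past the threshold, with log2 fold changes between -2.65 and -2.40. With PBS replicate 1 and IRF5-NP replicate 3 both left out it was -2.51 and did not pass (limma adjusted p = 0.0799), with 3 of the 754 genes past the threshold.

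Mmp8, the neutrophil collagenase, had 157, 90.0 and 83.9 normalized counts in PBS replicates 1, 2 and 3, highest in replicate 1. After IRF5-NPs it had 27.6, 33.1 and 33.8 in replicates 1, 2 and 3, and of these only replicate 2 was above background. The IRF5-NP samples did not overlap with PBS and lay at or near the level of the NEG_ probes. The means were 122 ± 49.3 (SD, n = 2) and 31.5 ± 3.38 (SD, n = 3), and the log2 fold change was -1.86 (standard error 0.34, 95% interval -2.65 to -1.07, limma adjusted p = 0.0158). With values below background raised to it, the fall was 2.50-fold instead of 3.64-fold. The call depended on single samples. Mmp8 no longer passed once PBS replicate 1 was left out (log2 fold change -1.44, limma adjusted p = 0.103), nor with IRF5-NP replicate 1 (-1.77, limma adjusted p = 0.0515) or IRF5-NP replicate 3 (-1.91, limma adjusted p = 0.065) left out.

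Neutrophil genes were read beside Mmp8, since Mmp8 is a neutrophil gene. Neutrophils carry CD11b but lack F4/80, so that the sort on both markers would remove them. Of 14 neutrophil markers on the panel, 1 was higher and none was lower, against 2.52% and 7.03% of all panel genes. The other 13 did not pass, and the median log2 fold change of the 14 was -0.03. Csf3r, the G-CSF receptor, was the one that was higher (log2 fold change 0.88, limma adjusted p = 0.0459), a call that was lost without PBS replicate 1 or IRF5-NP replicate 2 or 3. The granule genes Mpo, Camp and Ctsg and the receptor gene Cxcr1 were below background in all 6 samples, and Ly6g was above it only in IRF5-NP replicate 2. The granule gene Elane was above background in every sample but IRF5-NP replicate 3. Cxcr2 was above it in PBS replicates 1 and 2 and IRF5-NP replicate 1. Summed over the 14 genes, PBS replicates 1, 2 and 3 had 8623, 4016 and 4011 normalized counts. IRF5-NP replicates 1, 2 and 3 had 3601, 3315 and 3703. The sum was highest in PBS replicate 1, where Mmp8 was also highest, and in the remaining samples it lay between 3315 and 4016. Single markers went different ways within this sum without passing the test. Il1r2, a decoy receptor for IL-1, had 829, 109 and 123 normalized counts in PBS replicates 1, 2 and 3. In IRF5-NP replicates 1, 2 and 3 it had 72.4, 30.9 and 39.0, the last of them below background (limma adjusted p = 0.0599). Fpr2, a formyl peptide receptor gene, had 556 to 926 with PBS and 274 to 470 with IRF5-NPs (limma adjusted p = 0.109). Trem1 had 230 to 331 with PBS and 369 to 824 with IRF5-NPs (limma adjusted p = 0.0881). In these 3 genes the groups did not overlap, nor did they in S100a8, which was lower, and in Csf3r and Ly6g, which were higher. The other markers of the list overlapped. Over the panel, 20.4% of genes were lower and 17.0% higher without overlap.

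The calprotectin genes S100a8 and S100a9, which are abundant in neutrophils and monocytes, made up most of the excess in PBS replicate 1. S100a8 had 3405, 1171 and 1189 normalized counts in PBS replicates 1, 2 and 3 and between 512 and 987 with IRF5-NPs, a difference that did not pass (limma adjusted p = 0.0767). S100a9 had 2598, 458 and 429 with PBS and 724, 93.7 and 72.8 with IRF5-NPs, and the groups overlapped (limma adjusted p = 0.161). The value of 72.8, in IRF5-NP replicate 3, was below background. The part of these cells in the levels of Mmp8 was not tested.

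Mmp19 had 718, 359 and 344 normalized counts in PBS replicates 1, 2 and 3. With IRF5-NPs it had 217, 222 and 197, all below the lowest PBS sample and close to each other. The means were 535 ± 259 (SD, n = 2) and 212 ± 12.8 (SD, n = 3), and the log2 fold change was -1.24 (standard error 0.31, 95% interval -1.97 to -0.52, limma adjusted p = 0.0461). PBS replicate 1 held the highest value, and without it the log2 fold change was -0.73 and did not pass (limma adjusted p = 0.158). The call was also lost without IRF5-NP replicate 1, 2 or 3 (limma adjusted p = 0.0964, 0.0864 and 0.184), and after shifting the samples to a common median (limma adjusted p = 0.0847).

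Mmp13, the gene of collagenase 3, had 343, 439 and 499 normalized counts with PBS and 182, 195 and 262 with IRF5-NPs. Every IRF5-NP sample was below every PBS sample, and unlike Mmp8 and Mmp19 its lowest PBS value was in replicate 1. Its log2 fold change of -0.93 (standard error 0.26, 95% interval -1.53 to -0.32) did not pass with PBS replicates 2 and 3 as 1 sample (limma adjusted p = 0.0628). Counted as 6 separate samples it passed (limma adjusted p = 0.0176).

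Mmp9, the gelatinase B gene, had 461, 86.9 and 67.6 normalized counts in PBS replicates 1, 2 and 3, so that replicate 1 stood apart from the others. The IRF5-NP samples had 99.0, 47.4 and 59.8 in replicates 1, 2 and 3, the last of them below background, and the groups overlapped. The log2 fold change was -1.51 (standard error 0.69, 95% interval -3.11 to 0.09, limma adjusted p = 0.221). Without PBS replicate 1 it was -0.22 (limma adjusted p = 0.894). In both groups Mmp9 and S100a9 were highest in replicate 1.

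The stromelysin gene Mmp10 and the collagenase gene Mmp1a were close to or below background. Mmp10 had 28.0, 60.0 and 47.6 normalized counts with PBS and 53.3, 43.0 and 54.6 with IRF5-NPs, and was below background in PBS replicate 1 and IRF5-NP replicate 3. The groups overlapped, and the log2 fold change was 0.36 (95% interval -0.48 to 1.20, limma adjusted p = 0.635), which turned to -0.094 without PBS replicate 1. Mmp1a had 12.4 to 20.7 with PBS and 9.52 to 20.8 with IRF5-NPs, all below background, so that a change in this gene was not detectable at this depth.

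Timp3, the matrix-bound inhibitor, had 507, 577 and 590 normalized counts in PBS replicates 1, 2 and 3. After IRF5-NPs it had 1025, 805 and 912, each above the highest PBS sample. The means were 545 ± 54.0 (SD, n = 2) and 914 ± 110 (SD, n = 3), a ratio of 1.67 on the log2(value + 1) scale. Its log2 fold change of 0.74 (standard error 0.21, 95% interval 0.26 to 1.22) did not pass (limma adjusted p = 0.0628). It kept its sign with each sample left out, between 0.64 and 0.83, and passed with 6 separate samples (0.71, limma adjusted p = 0.0211) and with a common median (0.98, limma adjusted p = 0.025). The plot of changes sets the 8 genes beside the panel, and the plot with samples left out shows which calls rest on single samples.

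**Figure D2:**
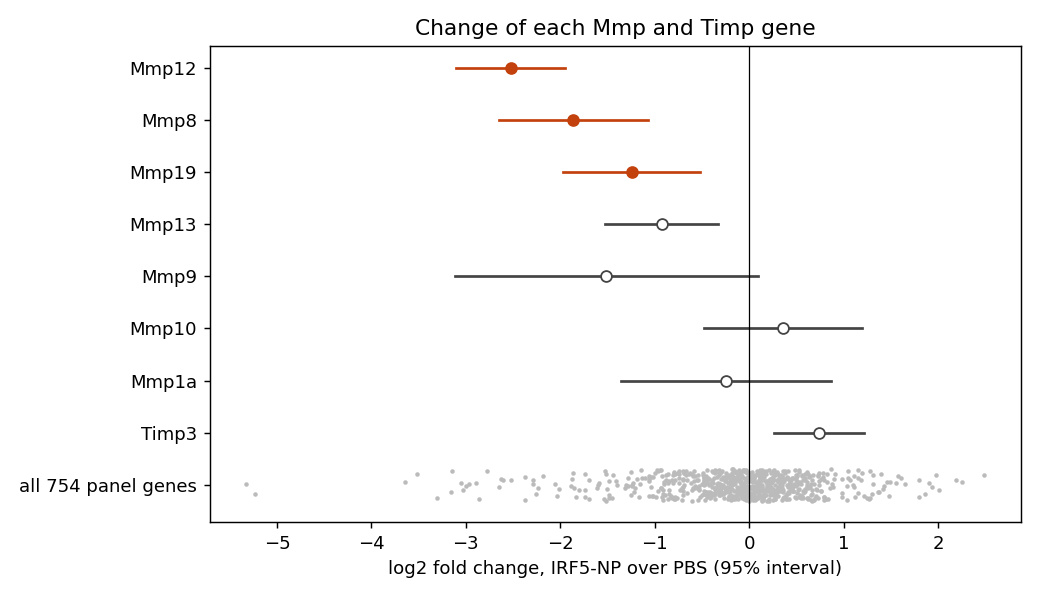
Log2 fold change of IRF5-NP over PBS (horizontal axis) for the 8 genes, with 95% intervals, and for all 754 panel genes (gray points, spread vertically for display). Orange filled points (Mmp12, Mmp8 and Mmp19) had a limma adjusted p under 0.05 and open points did not. The intervals of Mmp13 and Timp3 exclude 0, but their adjusted p was 0.0628.

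**Figure D3:**
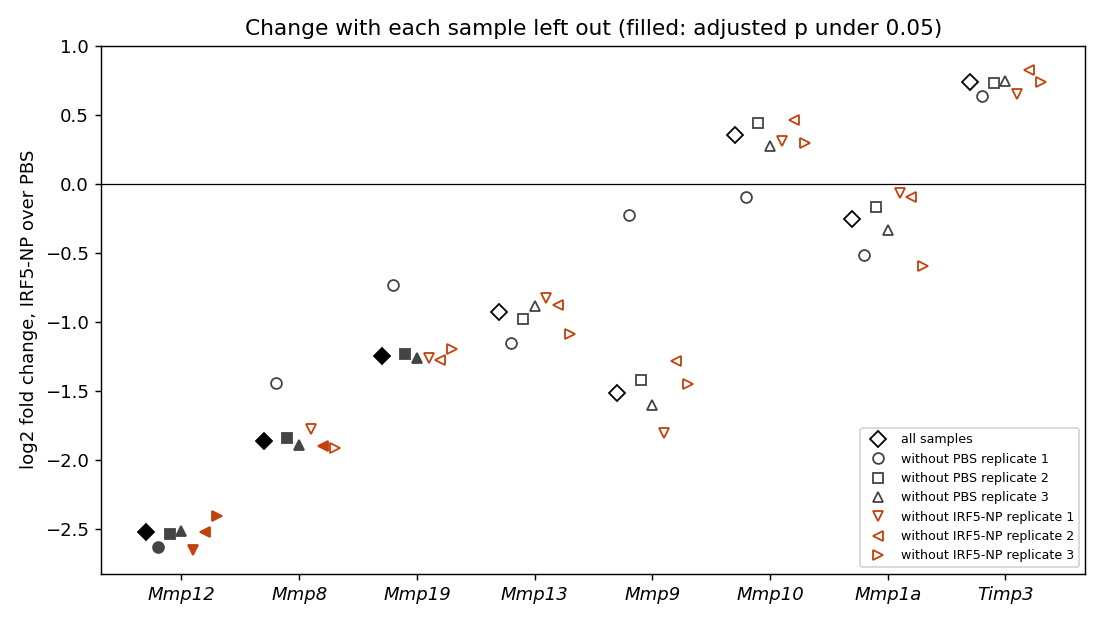
Log2 fold change of IRF5-NP over PBS (vertical axis) of each gene with all samples (black diamonds) and with 1 of the 6 samples omitted at a time (gray, PBS samples; orange, IRF5-NP samples), filled where the limma adjusted p was under 0.05. Mmp12 is filled throughout, Mmp8 in 3 and Mmp19 in 2 of the 6, and Mmp9 moves to -0.22 without PBS replicate 1.

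The fall of the macrophage elastase was set against that of the neutrophil collagenase in 1 value per sample, log2 Mmp12 minus log2 Mmp8. This value was 1.46, 2.44 and 2.58 in PBS replicates 1, 2 and 3 and 1.75, 1.24 and 0.98 in IRF5-NP replicates 1, 2 and 3. The groups overlapped through PBS replicate 1. The log2 fold change of Mmp12 was 0.66 further below 0 than that of Mmp8 (difference -0.66, two-sided exact permutation test over 10 splits, p = 0.3), where the smallest p that this design allows is 0.1. The difference turned to 0.70 with the background subtracted (exact permutation p = 0.4). The design could not pass the threshold in either case, and whether both genes fell unequally is not settled by these values. Mmp8 was below background in 2 of the 3 IRF5-NP samples, and since it reached or neared the level of the NEG_ probes, its fall could not be followed further at this depth.

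Across the 6 samples, which share the group difference, the members were also compared with each other. As a description without a test, Pearson's r of log2 values was 0.957 between Mmp8 and Mmp19, both highest in PBS replicate 1. It was 0.890 between the cluster neighbors Mmp12 and Mmp13, both lowest in that sample among the PBS samples. Mmp12 had r of 0.911 to Mmp8 and 0.810 to Mmp19, and Mmp8 had r of 0.796 to Mmp13. Timp3 ran opposite, with r of -0.972 to Mmp8 and -0.913 to Mmp12. Mmp9, also highest in PBS replicate 1, had r of 0.481 to Mmp12, 0.202 to Mmp13, 0.862 to Mmp19 and 0.705 to Mmp8. PBS replicates 2 and 3 enter these values separately. With their mean as 1 of 5 samples the same pairs had r of 0.967, 0.862, 0.919, 0.853, 0.803, -0.971, -0.908, 0.625, 0.339, 0.898 and 0.783, in the order given.

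The panel genes most like each called member were taken by Pearson's r of log2 values over the same 6 samples, among 548 genes. With PBS replicates 2 and 3 averaged, over 5 samples, the same 3 genes led for each member, in another order for Mmp19. For Mmp12 they were Chil3 (r = 0.999) and Chil4 (r = 0.999), which encode chitinase-like proteins of alternatively activated macrophages, and H2-Aa (r = 0.998), an MHC class II chain. Chil3 fell by 5.23 on the log2 scale (limma adjusted p = 0.00018), and it also is a gene of the monocyte list, whose summed level was 22570 to 30844 normalized counts with PBS and 6702 to 7808 with IRF5-NPs. H2-Aa fell by 3.03 on the log2 scale (limma adjusted p = 0.000929). Both passed with each of the 6 samples left out. For Mmp8 the most similar genes were Tnfrsf11a, which encodes the receptor RANK (r = 0.996), Mertk, a receptor for apoptotic cells (r = 0.996), and Socs2, a suppressor of cytokine signaling (r = 0.995). Mertk fell by 1.23 on the log2 scale (limma adjusted p = 0.0218) and was the 1 of 10 macrophage markers past the threshold, against 9.55% of the panel. Its call was lost without PBS replicate 1 (limma adjusted p = 0.121) and without each IRF5-NP sample. For Mmp19 they were the interferon receptor gene Ifnar1 (r = 0.995), the adhesion molecule gene Vcam1 (r = 0.994) and Aoah (r = 0.992), none of which passed (limma adjusted p = 0.0968, 0.0583 and 0.0664).

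Markers of resident macrophages and of other cells were read beside these genes. Over the panel, 2.52% of genes were called higher and 7.03% lower. Of 5 markers of resident large peritoneal macrophages, 2 were higher, Timd4 (log2 fold change 2.48, limma adjusted p = 0.0155) and Selp (2.19, 0.0423), and none was lower. Their summed level was 5929, 22977 and 22526 normalized counts in PBS replicates 1, 2 and 3 and 27163, 55172 and 52609 in IRF5-NP replicates 1, 2 and 3, lowest in PBS replicate 1, where Mmp9, Mmp19 and Mmp8 were highest. Without PBS replicate 1 or IRF5-NP replicate 3 neither Timd4 nor Selp passed, and the call for Selp also needed IRF5-NP replicates 1 and 2. Markers of fibroblasts, mesothelial cells and tumor cells, which also make MMPs and Timp3, were near background, with 0 to 3 of the 4 genes above it in a PBS sample and 0 to 2 in an IRF5-NP sample. None of the 4 passed. Pdgfra had 23.9, 44.5 and 28.8 normalized counts with PBS and 52.4, 59.5 and 72.8 with IRF5-NPs, without overlap (limma adjusted p = 0.0843), and was below background in PBS replicate 1 and IRF5-NP replicate 3. Of 10 eosinophil and mast cell markers, 2 were higher, the histidine decarboxylase gene Hdc (log2 fold change 1.86, limma adjusted p = 0.0218) and the mast cell carboxypeptidase gene Cpa3 (1.80, 0.0327), and none was lower. Of 2 lymphocyte markers, the B cell gene Ms4a1 was higher (1.49, 0.0351). Cpa3 and Ms4a1 were below background in every PBS sample and in IRF5-NP replicate 3. All 3 calls were lost without PBS replicate 1 or IRF5-NP replicate 3, and those of Cpa3 and Ms4a1 also without IRF5-NP replicate 1 or 2. None of 6 dendritic cell markers passed. The part of any of these cells in the levels of the MMP genes was not tested.

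Other genes of pericellular proteolysis were read from lists of the same panel, of which 7.03% of genes were called lower and 2.52% higher. Of 4 genes of plasminogen activation, which yields plasmin, an activator of several proMMPs, 1 was lower and 3 did not pass. Plau, the urokinase gene, had 824, 839 and 764 normalized counts in PBS replicates 1, 2 and 3 and 358, 323 and 351 in IRF5-NP replicates 1, 2 and 3, with every IRF5-NP sample below every PBS sample. It went from 812 ± 17.0 (SD, n = 2) to 344 ± 18.5 (SD, n = 3) and fell by 1.24 on the log2 scale (limma adjusted p = 0.00752). Plau passed with 5 of 6 samples left out singly, and not without IRF5-NP replicate 3 (limma adjusted p = 0.065). For the urokinase receptor gene Plaur the log2 fold change was 0.09 (limma adjusted p = 0.89), and for Serpinb2, a serpin, it was 2.25 and did not pass (limma adjusted p = 0.0968).

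None of 10 ADAM and ADAMTS genes and none of 9 cathepsin and granule protease genes passed. Their median log2 fold changes were 0.13 and 0.03, against -0.03 for the panel, but 2 of the 10 and 3 of the 9 were below background in all 6 samples. Without overlap of the groups, Adam19, Ctsa, Ctsl and Ctss were lower and Ctsd, Cma1 and Tpsb2 were higher. Over the panel, 20.4% of genes were lower and 17.0% higher in this way. Tpsb2 was below background throughout, and Cma1 was above it in 1 sample. Adam8 changed by -0.49 (limma adjusted p = 0.601) and Ctsd, the cathepsin D gene, by 0.66 (limma adjusted p = 0.461), both on the log2 scale. Of 3 binding and activating partners, 1 was lower, against 7.03% of the panel. This was Furin, the convertase that cleaves the propeptide of some MMPs, which fell by 0.92 on the log2 scale (limma adjusted p = 0.0327). Leaving out PBS replicate 1 or IRF5-NP replicate 2 or 3 ended this call. Cd44, which can hold MMP9 at the cell surface, and Cd151 did not pass. The plot of related genes shows these lists.

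**Figure D4:**
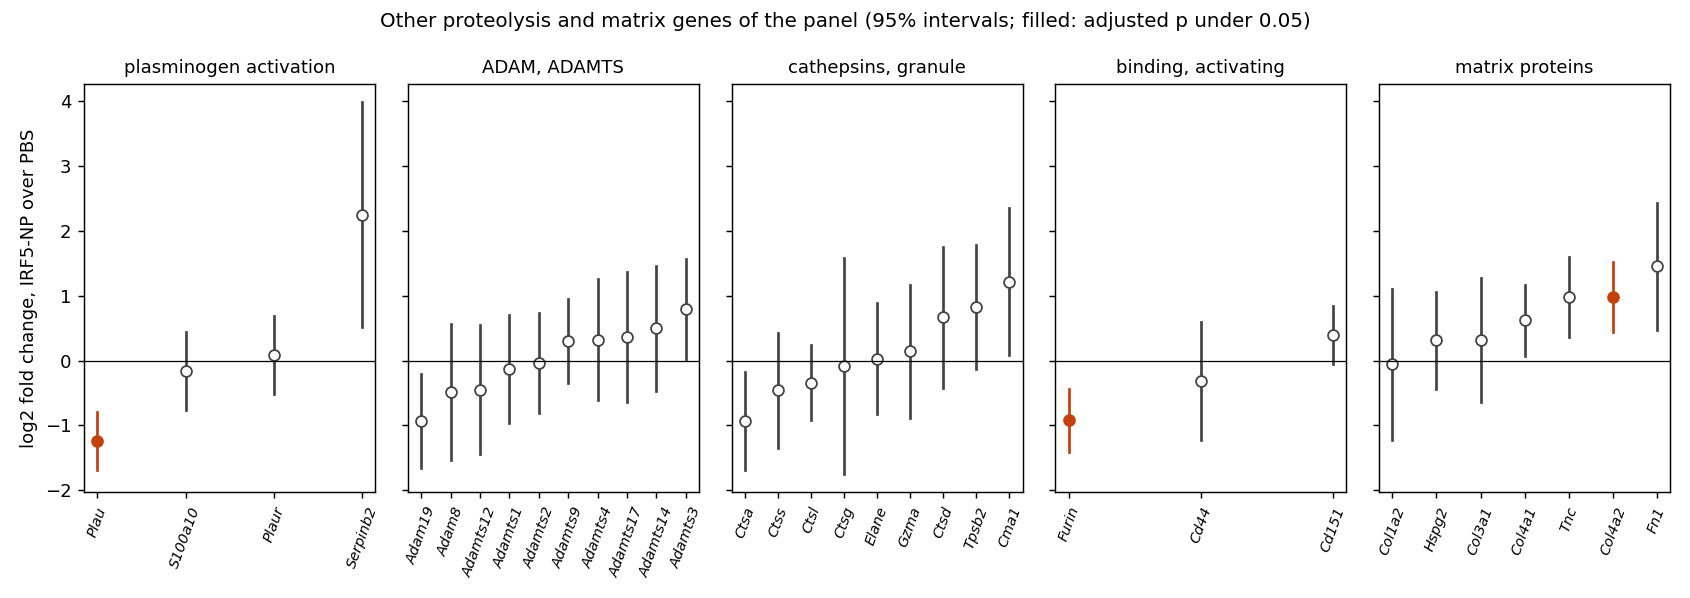
Log2 fold change of IRF5-NP over PBS (vertical axis) with 95% intervals for the panel genes of 5 lists, namely plasminogen activation, ADAM and ADAMTS, cathepsins and granule proteases, binding and activating partners, and matrix proteins. Orange filled points had a limma adjusted p under 0.05, which were Plau and Furin below 0 and Col4a2 above 0.

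Of 7 matrix protein genes, substrates of MMPs among them, 1 was higher and none was lower, against 2.52% and 7.03% of the panel. Their median log2 fold change was 0.62. Col4a2, a chain of basement membrane collagen, averaged 440 ± 21.5 normalized counts in PBS samples (SD, n = 2) and 884 ± 175 in IRF5-NP samples (SD, n = 3; log2 fold change 0.98, limma adjusted p = 0.0383), a call that leaving out PBS replicate 1 or IRF5-NP replicate 1 or 3 ended. Fn1, which encodes fibronectin, had a log2 fold change of 1.45 and did not pass (limma adjusted p = 0.0683).

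Among genes upstream of MMP expression, 1 of 15 cytokine genes was lower and none was higher, against 7.03% and 2.52% of the panel. Of the 15, 3 were below background in all 6 samples. Tnf, an inducer of MMP genes, had 330, 268 and 253 normalized counts in PBS replicates 1, 2 and 3. In IRF5-NP replicates 1, 2 and 3 it had 104, 52.9 and 65.0, the last of them below background. It fell by 2.03 on the log2 scale (limma adjusted p = 0.00932), and its call was lost without PBS replicate 1 or IRF5-NP replicate 3. Il1b, another inducer, changed by 0.04 on the log2 scale (limma adjusted p = 0.943).

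Of 6 AP-1, ETS and NF-kappaB genes, 2 were lower, against 7.03% of the panel. Jun, a subunit of AP-1, had 5716, 1948 and 2043 normalized counts in PBS replicates 1, 2 and 3 and between 932 and 1258 with IRF5-NPs, and its log2 fold change was -1.70 (limma adjusted p = 0.0429). Nfkbia, the NF-kappaB inhibitor, had 3109, 1499 and 1448 with PBS and between 709 and 817 with IRF5-NPs, and its log2 fold change was -1.48 (limma adjusted p = 0.0293). Both were highest in PBS replicate 1, and without it, or without any of the 3 IRF5-NP samples, neither passed (limma adjusted p = 0.18 and 0.133 without PBS replicate 1). Fosb had a log2 fold change of -3.06 and did not pass (limma adjusted p = 0.0579).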

How the data were processed

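The deposited values of 6 NanoString samples (3 PBS, 3 IRF5-NP) are a signal, the normalized count, which the authors scaled to housekeeping genes in nSolver after a check with NanoStringQCPro, as the methods state for cultured macrophages. A log2 step named there is absent from the values. The scale factor of each sample (0.952 to 2.60) was recovered from the gene values, which were whole multiples of it within 0.01 normalized counts for 754 of 754 genes. Divided by it, values summed to 683472 to 1830318 counts, used for depth, replicate comparison and background. NEG_ probes are raw counts. No transcripts are amplified in this assay, and Poisson intervals cover counting error only.

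Groups came from the sample labels. Genes were compared with limma 3.58.1 (R 4.3.3, lmFit and eBayes with trend, two-sided) on log2 values with a pseudocount of 1, without a filter, at an adjusted p of 0.05. PBS replicates 2 and 3 were averaged, which leaves 2 PBS samples. Scripts were tested on simulated data. Figures used Python 3.11.15, numpy 2.4.6, pandas 2.3.3, scipy 1.17.1 and matplotlib 3.10.9. The members, lists and tests were chosen with earlier results of these data known. Named genes are all members, the 3 genes most similar to each called member and list genes past the threshold. For some lists, up to 3 others by mean level were named. Ctsa, Cma1 and Tpsb2 were named because their groups did not overlap. Irf5, Mpo, Camp, Ctsg, Elane, Cxcr1, Cxcr2, Ly6g, Il1r2, Fpr2, Trem1, Il1b and Fosb were added for their roles after their values were seen. Alternatives covered scaling, background, pseudocount, filter, variance prior, adjustment, the test named in the methods, the replicate block and left-out samples. One gene was taken out of the lists and is not reported here.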

Additional observations from a re-analysis of the deposited data

How the results depend on the processing

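With one sample left out, 1 to 3 members were lower and none higher, and 21 to 83 panel genes passed. Mmp8 ranged from -1.91 to -1.44, Mmp10 from -0.094 to 0.47 (log2 fold changes) and Mmp12 minus Mmp8 from -1.19 to -0.49. Mmp10 reached -0.094 without PBS replicate 1, where 1 PBS sample remains, whose spread is taken to equal that of the IRF5-NP group. Without both PBS replicate 1 and IRF5-NP replicate 3, chosen after seeing the data, 3 panel genes and 0 members passed, with Mmp12 at -2.51, Mmp8 at -1.49 and Mmp10 at -0.16. As 6 separate samples, 121 genes passed, with 4 members lower and 1 higher. A replicate block with 6 samples gave 135 genes, with 4 members lower and 1 higher. Numbers were not taken as pairs in the main comparison. Deviations over 482 genes correlated by 0.158, 0.178 and 0.0953 for numbers 1, 2 and 3. For each IRF5-NP sample this was the highest value, though for replicate 3 PBS replicate 2 was close (0.0937). PBS replicate 3 correlated best with IRF5-NP replicate 2 (0.144), but PBS replicates 2 and 3 may be 1 library. Whether the numbers are pairs is not settled by these values.

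The t-test named in the methods was run with PBS replicates 2 and 3 averaged and with Benjamini-Hochberg adjustment. The methods name Benjamini-Yekutieli adjustment, so this is not a repeat of the study's test. It passed 0 panel genes and 0 members (Mmp12 -2.52, Mmp8 -1.86), while 125 genes had an unadjusted p under 0.05, against 191 with limma. Without the variance trend 41 genes passed. Background subtraction gave 24 genes and 0 members, with Mmp12 at -3.20, Mmp8 at -3.90 and their difference at 0.70, and no value for Mmp1a. Benjamini-Yekutieli adjustment gave 21 genes and 1 member, Mmp12, with Mmp8 at -1.86 and not past it. A common median, which moved the panel median from -0.03 to 0.21, gave 42 genes higher and 36 lower, with 1 member higher, and quantile normalization, which moved it to 0.11, gave 35 and 40. The causes were not tested. The 8 members kept their sign under every setting run except Mmp10. Of the results under other settings, 145 were labelled unchanged and 50 changed. For fold changes, unchanged meant the same direction and call. Counts of genes were also among these results, and were taken as unchanged within a set ratio of the main count. A count test with edgeR was planned and not run, because the recovered counts of 3 samples did not pass a separate check for whole counts. Depth limited Mmp1a, Mmp10 and the low levels of Mmp8, Mmp9 and Mmp12, most in IRF5-NP replicate 3.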
